A study of Mus musculus with 21 samples.

Results

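The Nfat transcription factor family was followed through mouse pharyngeal arch and outer-ear RNA-seq as 7 genes, taken by symbol from the 24594 genes in each of 2 count tables. They are the 5 Nfat factors (Nfatc1, Nfatc2, Nfatc3, Nfatc4 and Nfat5) and 2 regulators of calcineurin, Rcan1 and Rcan2, and each was found in both tables. In the stage table, 9 libraries were made from cranial neural crest cells of WT Wnt1::Cre;ROSARFP embryos. Wnt1::Cre switches on a red reporter in the neural crest, the migratory embryonic cells that build most of the face, and reporter cells were sorted from the second pharyngeal arch (PA2) at embryonic day E10.5 and, at E12.5 and E14.5, from its derivative, the external ear or pinna. In the genotype table, 12 libraries were made at E10.5 from dissected PA2 and PA3, the third arch, of WT and of HIRE1del/del embryos. HIRE1 is a distal regulatory region of the Hoxa gene cluster that CRISPR removed from the germ line, so that every cell of the embryo lacked it, on a mixed C57Bl/6J;CD1 background with embryos of both sexes pooled. Each of the 7 groups had 3 libraries, labelled as independent biological replicates.

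NFATc proteins wait in the cytoplasm in a phosphorylated form. When calcium rises, calmodulin activates the phosphatase calcineurin, which strips these phosphates so that NFATc proteins enter the nucleus and bind the DNA letters GGAAA, until kinases such as GSK3, DYRK and casein kinase 1 and the exporter Xpo1 return them. Nfat5 has the DNA-binding domain but not the calcineurin-docking part, and is best known for the response to osmotic stress, while Rcan1 and Rcan2 bind calcineurin and restrain it. The libraries measured transcript levels, and neither phosphorylation nor nuclear entry was measured.

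The total per library was 25.8 to 32.2 M counts in the genotype table and 25.8 to 49.1 M in the stage table, where the E14.5 libraries were the deepest (47.5 to 49.1 M). Hoxa2, a gene of that cluster, served as a check on the genotype labels and was lower in HIRE1del than in WT by a log2 fold change of -3.74 (SE 0.12, edgeR adjusted p = 1.56e-09) in PA2. The 5 crest mesenchyme markers summed to 1502 to 3930 CPM (the count of a gene scaled to a library of 1 M counts) in the stage libraries and to 571 to 1058 CPM in the genotype libraries. All libraries carry the label of cranial neural crest cells, but no sort is stated for the genotype table, and 5 endothelial markers summed to 237 to 294 CPM there against 6.79 to 8.99 CPM in the sorted E10.5 cells. In both tables, fewer cells of a type and less RNA per cell cannot be told apart.

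Promoter sequence is shown for 1 start each of Nfatc2 and Rcan2, the members with the largest fold changes between E10.5 and E14.5. It is also shown for both starts of Rcan1, whose internal start is known to give the short transcript that NFAT induces. The 250 bases before a RefSeq start (GRCm38.p6) were read for 6 of the 7 members, all but Nfatc1, 11 promoters in all. They were searched for GGAAA on either strand, which reads TTTCC where it lies on the other strand. The motif was present in 7 of these 11. Of all 32851 promoters, 55.6% held at least 1 match, 21.4% at least 2 and 6.39% at least 3. The promoters with 3 matches were the upstream Nfatc2 promoter, the Nfatc4 promoter and the internal Rcan1 promoter, while 2 matches lay in those of Nfat5 and the first start of Rcan2, and the upstream Rcan1 promoter had 0. The other Nfatc2 start, not shown, had 1 match, and the later Rcan2 starts, not shown, had 0. In the sequences below, printed 5′ to 3′ along the strand of the gene, capitals mark the matches. No GENCODE M21 exon covers the Rcan1 and Nfatc2 stretches, and 1 base of the Rcan2 stretch is exonic.
Rcan1 upstream start, minus strand, chr16:92466170-92466419: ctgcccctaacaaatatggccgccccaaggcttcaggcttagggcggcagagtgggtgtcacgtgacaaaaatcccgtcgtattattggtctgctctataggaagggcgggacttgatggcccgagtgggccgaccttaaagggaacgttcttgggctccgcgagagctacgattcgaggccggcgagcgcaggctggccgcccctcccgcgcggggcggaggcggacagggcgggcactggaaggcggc
Rcan1 internal start, minus strand, chr16:92400079-92400328: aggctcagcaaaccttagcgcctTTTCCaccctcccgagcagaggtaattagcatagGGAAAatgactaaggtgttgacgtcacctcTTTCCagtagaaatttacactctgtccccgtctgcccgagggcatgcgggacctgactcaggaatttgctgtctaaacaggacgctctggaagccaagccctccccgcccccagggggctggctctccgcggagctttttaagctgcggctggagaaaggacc
Nfatc2 upstream start, minus strand, chr2:168601658-168601907: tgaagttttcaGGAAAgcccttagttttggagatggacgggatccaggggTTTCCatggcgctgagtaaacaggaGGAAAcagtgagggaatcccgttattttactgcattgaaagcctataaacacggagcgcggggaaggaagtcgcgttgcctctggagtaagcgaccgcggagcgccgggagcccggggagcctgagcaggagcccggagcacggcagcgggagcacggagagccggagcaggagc
Rcan2 first start, plus strand, chr17:43801102-43801351: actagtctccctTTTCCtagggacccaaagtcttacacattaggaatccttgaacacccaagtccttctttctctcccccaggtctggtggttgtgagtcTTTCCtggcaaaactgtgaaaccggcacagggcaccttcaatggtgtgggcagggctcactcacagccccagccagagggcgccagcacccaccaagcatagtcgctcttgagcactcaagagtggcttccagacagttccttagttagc
The Rcan1 pair differs in this motif, with 0 matches upstream and 3 at the internal start. A match describes letters and not a bound site. The counts add the transcripts of every start of a gene, so the 2 Rcan1 starts cannot be told apart in the values that follow.

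Nfatc4 was the most abundant member per exon length and Nfatc2 the least abundant in each of the 7 groups. In sorted PA2 cells at E10.5 the level, in CPM per kilobase of exon, was 53.3 ± 5.22 (SD, n = 3) for Nfatc4, 20.3 ± 0.368 for Nfatc3 and 11.8 ± 0.47 for Rcan1. Nfatc1 (3.16 ± 0.371) and Nfat5 (2.95 ± 0.179) followed with overlapping libraries, and Rcan2 (0.493 ± 0.0492) and Nfatc2 (0.0569 ± 0.015) came last. The middle of this order changed with stage. At E12.5 Nfatc1, at 13.1 ± 0.306 CPM per kilobase, took the third place after Nfatc4 (70.6 ± 3.34) and Nfatc3 (17.7 ± 1.24), and at E14.5 Nfat5, at 14 ± 0.979, took the third place after Nfatc4 (57.7 ± 3.55) and Nfatc3 (16.6 ± 1.18). Neighbours in the order did not overlap at E12.5 or E14.5, where Rcan2 rose from 0.538 ± 0.125 to 5.02 ± 0.429 CPM per kilobase and Nfatc2 from 0.293 ± 0.0548 to 1.54 ± 0.434.

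In the 4 arch groups the order was Nfatc4, Nfatc3, Rcan1 and Nfat5, with Nfatc2 last, and Nfatc1 and Rcan2 between. Nfatc1 was above Rcan2 in PA2 of both genotypes (1.48 ± 0.24 against 0.679 ± 0.0578 CPM per kilobase in WT). In PA3 WT Rcan2 (1.48 ± 0.262) was above Nfatc1 (1.08 ± 0.142), and in PA3 HIRE1del their libraries overlapped. Where the longest GENCODE transcript replaced the union of exons, Nfatc4 stayed first and Nfatc2 last, but Nfatc3 moved from the second to the third place in every group except sorted PA2 at E10.5. The members are shown side by side in the plot of levels per kilobase.

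**Figure D1:**
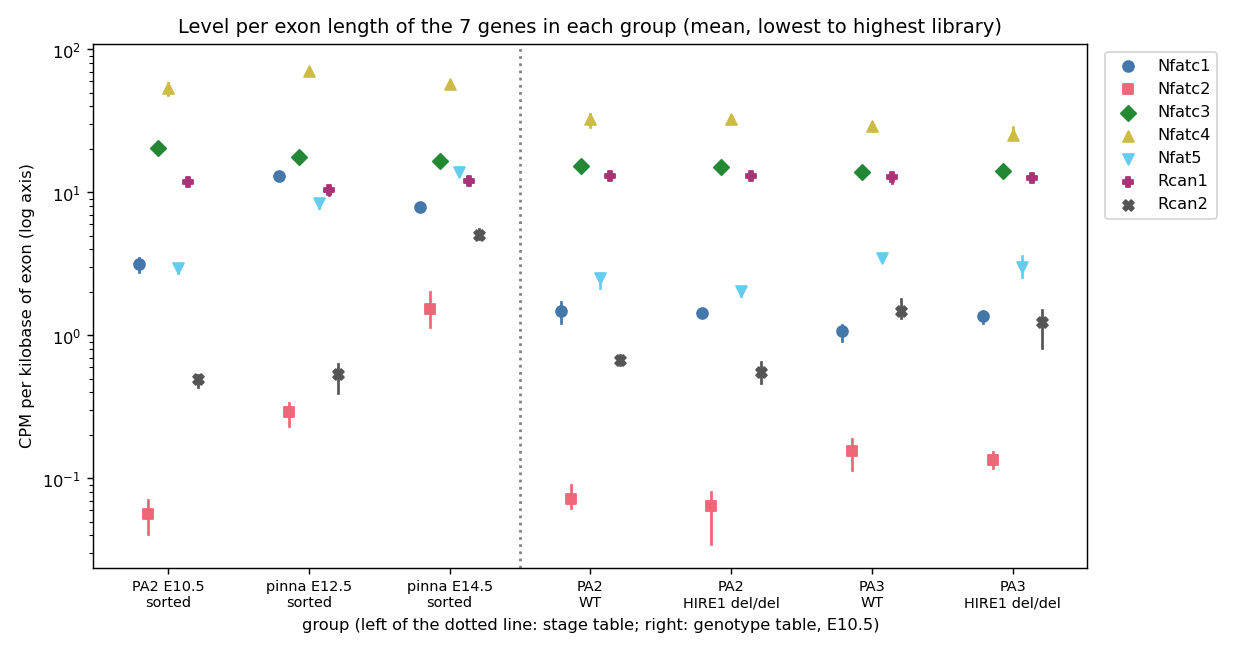
Level of each of the 7 genes in CPM per kilobase of exon (log axis) in the 3 stage groups, left of the dotted line, and the 4 genotype groups, right of it. Symbols are means of 3 libraries and bars run from the lowest to the highest library. Nfatc4 lies at the top and Nfatc2 at the bottom throughout, with Nfatc1, Nfat5, Rcan2 and Nfatc2 higher at E14.5 than at E10.5.

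The stage comparison asked how the family changes while PA2 crest cells become the mesenchyme of the pinna. From E10.5 to E12.5, 4 of the 7 members rose (Nfatc1, Nfatc2, Nfatc4 and Nfat5), Nfatc3 and Rcan1 fell slightly, and Rcan2 did not pass the test. From E12.5 to E14.5, Nfatc2, Nfat5, Rcan1 and Rcan2 rose, Nfatc1 and Nfatc4 fell, and Nfatc3 did not pass. Between the end points, Nfatc1, Nfatc2, Nfat5 and Rcan2 were higher at E14.5 and Nfatc3 was lower. Changes were common in these cells: with the edgeR quasi-likelihood test at an adjusted p under 0.05, 35% of all 13438 genes tested rose and 33.7% fell from E10.5 to E12.5, 32.6% rose and 33.1% fell from E12.5 to E14.5, and 42% rose and 40% fell between the end points. The 6, 6 and 5 members called are to be read against those shares. Nfatc2 is in each of these counts, though it was tested only because it reached 1 CPM at E12.5 and E14.5, where it was higher. Cells were freed with trypsin at E10.5 and E12.5 and with papain at E14.5, so stage and digestion cannot be told apart in the E14.5 comparisons. The study named Nfatc1, Nfatc3 and Nfat5 as factors that may bind NFAT motifs and examined their change over stages in these same libraries, so their stage differences here are not independent evidence.

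Nfatc1 (ENSMUSG00000033016, GRCm38 chr18:80606205-80713071), which is known for its part in heart valve and osteoclast formation, peaked at E12.5. Its levels were 20.6, 23.9 and 26.1 CPM in the sorted E10.5 libraries, 99.6, 97.8 and 95.1 CPM at E12.5, and 56.7, 61.8 and 57.7 CPM at E14.5. The 3 groups did not overlap. From E10.5 to E12.5 the log2 fold change was 2.05 (SE 0.08, adjusted p = 5.82e-09), a 4.14-fold rise, and from E12.5 to E14.5 it was -0.73 (SE 0.08, adjusted p = 1.04e-05). At E14.5 the level was still 2.49-fold that of E10.5.

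Nfatc2 (ENSMUSG00000027544, chr2:168476410-168601657), best known as an NFAT of T cells, started near the limit of detection and rose at both steps. It was at 0.435, 0.618 and 0.752 CPM at E10.5, 3.27, 2.45 and 3.57 CPM at E12.5, and 15.5, 12.1 and 21.2 CPM at E14.5. Every library of a later stage was above every library of an earlier one. The E10.5 values rest on 13, 18 and 23 counts, so their counting error is large, and the gene passed the filter of 1 CPM in at least 2 libraries only through the later stages. Its log2 fold change was 2.35 (SE 0.30, adjusted p = 3.22e-05) from E10.5 to E12.5 and 2.39 (SE 0.23, adjusted p = 4.24e-06) from E12.5 to E14.5, and over both steps it was 4.75 (SE 0.28), a 26.8-fold rise.

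Nfatc3 (ENSMUSG00000031902, chr8:106058840-106130537), an NFATc gene with broad expression, had the smallest log2 fold change of the Nfat factors at the first step. Its values were 133, 134 and 130 CPM at E10.5, 109, 112 and 124 CPM at E12.5, and 108, 116 and 101 CPM at E14.5. The E10.5 libraries stood above the rest, and those of E12.5 and E14.5 overlapped. The fall to E12.5 had a log2 fold change of -0.20 (SE 0.07, adjusted p = 0.0225), and the difference between the end points was -0.29 (SE 0.07, adjusted p = 0.00215). The first call was lost with scaling by total counts only (adjusted p = 0.0977) and without E10.5 replicate 2 or E12.5 replicate 1 or 2 (0.0652, 0.0838 and 0.069), within a range of 0.0102 to 0.0977 over the alternatives. Of its exons, 219 bases are shared with Esrp2 on the other strand, and the kit is labelled unstranded.

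Nfatc4 (ENSMUSG00000023411, chr14:55823144-55833943), known with Nfatc3 for vessel patterning in the embryo, peaked at E12.5 like Nfatc1 but by far less. It was at 278, 314 and 338 CPM at E10.5, 432, 396 and 402 CPM at E12.5, and 342, 312 and 351 CPM at E14.5. The E12.5 libraries stood above both other groups, which overlapped each other. Its log2 fold change was 0.41 (SE 0.08, adjusted p = 0.000734) from E10.5 to E12.5 and -0.29 (SE 0.08, adjusted p = 0.0064) from E12.5 to E14.5, and 0.11 (SE 0.08, adjusted p = 0.201) between the end points.

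Nfat5 (ENSMUSG00000003847, chr8:107293470-107379517), the osmotic member, rose at both steps. It was at 50.5, 55.5 and 56.8 CPM at E10.5, 159, 144 and 161 CPM at E12.5, and 250.2, 278 and 244 CPM at E14.5, with no overlap between stages. Its log2 fold change was 1.51 (SE 0.07, adjusted p = 2.35e-08) at the first step, 0.74 (SE 0.07, adjusted p = 5.02e-06) at the second and 2.25 (SE 0.08) over both, a 4.74-fold rise.

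Rcan1 (ENSMUSG00000022951, chr16:92391953-92470867), whose transcription NFAT is known to raise as a feedback on calcineurin, varied little. It was at 36.1, 38 and 35.1 CPM at E10.5, 33.4, 32.7 and 29.7 CPM at E12.5, and 37.9, 36.5 and 37.6 CPM at E14.5. The E12.5 libraries were below both other groups, and the E10.5 and E14.5 libraries overlapped. Its log2 fold change was -0.19 (SE 0.07, adjusted p = 0.0254) from E10.5 to E12.5 and 0.23 (SE 0.07, adjusted p = 0.0107) from E12.5 to E14.5, and 0.04 (SE 0.07, adjusted p = 0.615) between the end points. The first call was lost with total counts only (adjusted p = 0.0888) and without E10.5 replicate 2 or E12.5 replicate 3 (0.0972 and 0.153), in a range of 0.0185 to 0.153 over the alternatives. The second was lost with total counts only (0.177) and without E12.5 replicate 3 (0.0652), in a range of 0.00652 to 0.177.

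Rcan2 (ENSMUSG00000039601, chr17:43801351-44039516), the paralog known from brain and muscle, was low until E12.5 and then rose more than any other member at that step. It was at 1.91, 2.3 and 2.25 CPM at E10.5, 2.75, 1.73 and 2.58 CPM at E12.5, and 20.9, 20.8 and 24.1 CPM at E14.5. The first 2 groups overlapped and the third stood apart. The log2 fold change was 0.12 (SE 0.18, adjusted p = 0.57) at the first step and 3.22 (SE 0.16, adjusted p = 3.46e-08) at the second, a 9.35-fold rise. The levels of all 7 members in each stage library are shown in the plot by stage.

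**Figure D2:**
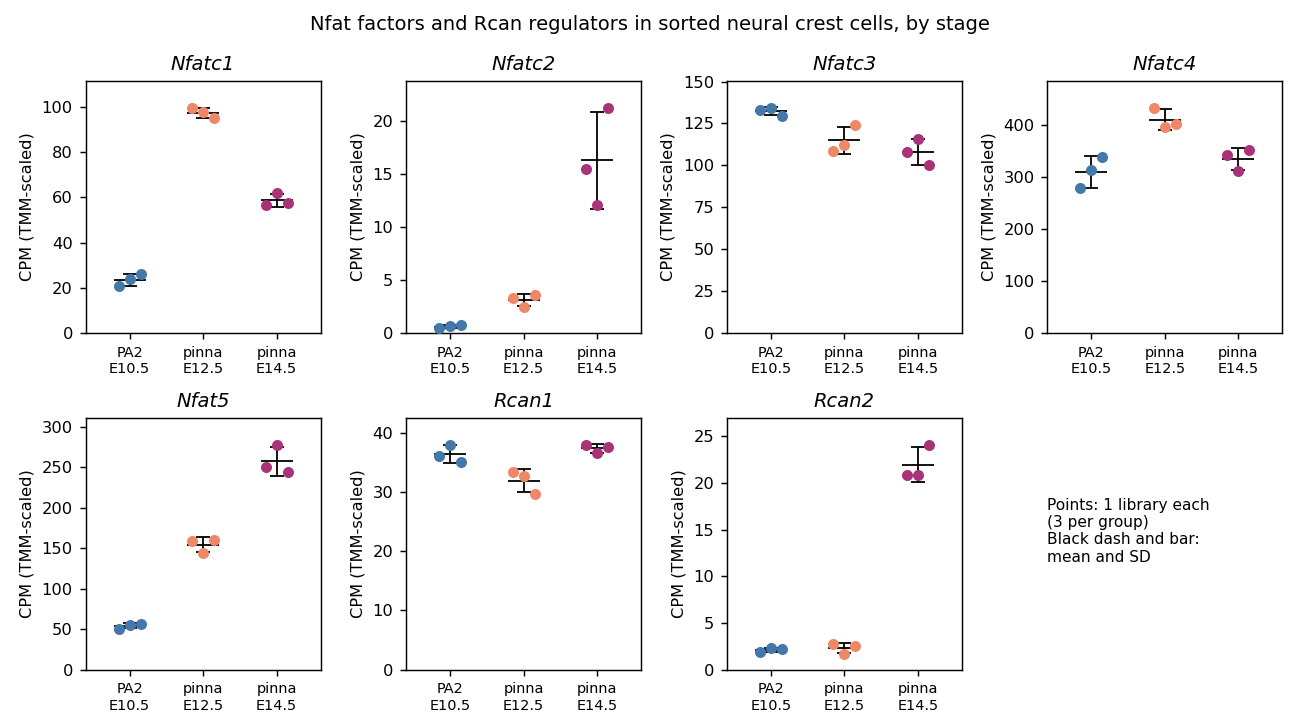
CPM (TMM-scaled) of the 7 genes in sorted neural crest cells of PA2 at E10.5 and of the pinna at E12.5 and E14.5, with a panel per gene and axes from 0. Points are libraries, 3 per group, and the dash and bar are the mean and SD. Nfatc1 and Nfatc4 peak at E12.5, Nfatc2 and Nfat5 rise at both steps, Rcan2 rises at E14.5, and Nfatc3 and Rcan1 vary little.

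Markers of other cell types also moved in the sorted cells. The 5 smooth muscle and pericyte markers summed to 33.8 to 50.8 CPM at E10.5, 68.7 to 80.2 CPM at E12.5 and 337 to 407 CPM at E14.5. Between the end points 3 of them were called higher, Rgs5 was called lower (log2 fold change -2.65) and Tagln was not called. The 5 endothelial markers went from 6.79 to 8.99 CPM through 19 to 26.2 CPM to 108 to 173 CPM, with 3, 2 and 2 of them below 1 CPM, a rise carried by Kdr (log2 fold change 5.43 between the end points), since the other 3 tested were not called, among them Pecam1 (-0.25) and Tek (-0.28). The 5 glial markers went from 20.5 to 23.4 CPM through 21.6 to 25.6 CPM to 84.3 to 99.8 CPM, with Foxd3 at 0 throughout. The 6 epithelial markers summed to 9.17 to 11.4 CPM, 7.84 to 9.65 CPM and 24.8 to 42.6 CPM, and Krt14 (log2 fold change 8.57), Krt5 (6.44) and Cdh1 (5.69) were called higher at E14.5 than at E10.5 while 2 others were called lower. Macrophage markers were at 4.32 to 4.87 CPM, 3.43 to 4.25 CPM and 6.85 to 12.1 CPM, with both tested markers higher at E14.5, and erythroid markers went from 0.234 to 1.338 CPM at E10.5 to 1.83 to 12.2 CPM at E14.5. The 5 neuronal markers summed to 34.1 to 39.6 CPM at E10.5 and 10.9 to 17.4 CPM at E14.5. Of the 3 tested between the end points, Tubb3 was called lower (log2 fold change -3.82), while Stmn2 (4.09) and Elavl4 (0.57) were called higher. The sum of the 5 chondrogenic markers fell from 1660 to 1703 CPM at E10.5 to 336 to 371 CPM at E14.5. Of the 4 tested, 3 were called lower and Acan was called higher (2.49). Rcan2 and Nfatc2 were highest at E14.5 as well, and the part of these cells in their values was not tested.

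The rest of the pathway was read from 7 lists of 48 genes, of which 43 were tested. The counts in each list are to be read against the shares of all genes given above, 35%, 32.6% and 42% higher and 33.7%, 33.1% and 40% lower in the 3 comparisons. All 4 calcineurin subunits tested were higher at E14.5 than at E10.5, and Ppp3r2 was too low to test. Ppp3ca, a catalytic subunit, went from 50.9 ± 3.02 (SD, n = 3) CPM at E10.5 through 101 ± 4.4 to 127 ± 3.75 CPM at E14.5, with a log2 fold change of 0.99 (SE 0.06, adjusted p = 1.4e-07) at the first step and 0.33 (SE 0.06, adjusted p = 0.000555) at the second. Ppp3cc rose by a log2 fold change of 0.68 (SE 0.12, adjusted p = 0.000292) at the first step, and Ppp3r1, the regulatory subunit, by 0.41 (SE 0.10, adjusted p = 0.00381) at the second. At the end points the list had a median log2 fold change of 0.79, against 0.02 over all genes tested. Calm2, a calmodulin gene, fell at the first step (-0.39, SE 0.09, adjusted p = 0.00333) and rose at the second (0.42, SE 0.09, adjusted p = 0.00229). Between the end points the log2 fold changes of Calm2 and Calm3 were 0.03 and -0.08 (adjusted p = 0.773 and 0.26).

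Among the 10 genes of calcium entry and release, 4 rose and 2 fell from E10.5 to E12.5, near the shares of all genes, 8 rose and 1 fell from E12.5 to E14.5, and 8 rose and 1 fell between the end points. Itpr3, a calcium release channel of the endoplasmic reticulum, went from 24.6 ± 1.15 CPM at E10.5 to 81.8 ± 8.77 CPM at E14.5 (log2 fold change 1.73, SE 0.13, adjusted p = 1.47e-07). Itpr2 was near the floor of detection at E12.5, with 20, 4 and 15 counts at E10.5, 1, 2 and 4 at E12.5 and 71, 40 and 50 at E14.5. It passed the filter through the E14.5 libraries alone, so no fold is given for it. Itpr2 is nonetheless included in the counts above, among the 2 that fell at the first step and in both counts of 8 that rose. Plcg2, a phospholipase that acts upstream of these channels, fell at the first step (-1.341, SE 0.16, adjusted p = 1.73e-05) and rose at the second (1.23, SE 0.16, adjusted p = 3.6e-05), with mean levels of 5.18, 2.04 and 4.81 CPM. Between the end points its log2 fold change was -0.11 (adjusted p = 0.507).

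Of the 4 other inhibitors and anchors, Rcan3, the remaining Rcan gene, rose at both steps, from 18.7 ± 1.86 CPM through 30.5 ± 1.81 to 53.9 ± 3.72 CPM. Its log2 fold change was 0.71 (SE 0.09, adjusted p = 3.07e-05) and then 0.82 (SE 0.09, adjusted p = 8.63e-06). Chp1, a calcineurin B homologue that inhibits calcineurin, fell at the first step (-0.30, SE 0.08, adjusted p = 0.00867), and Akap5, an anchor of calcineurin, at the second (-0.90, SE 0.29, adjusted p = 0.0188). Leaving out E12.5 replicate 1 ended the Akap5 call (adjusted p = 0.0555, range 0.00301 to 0.0555), and without E14.5 replicate 1 its log2 fold change was -0.55. Among the 8 NFAT kinases and export genes, 1 rose and 3 fell between E10.5 and E14.5. Csnk1e, a casein kinase, went from 236 ± 7.21 CPM to 148 ± 4.14 CPM (-0.67, SE 0.06, adjusted p = 7.67e-07) and Xpo1 from 557 ± 63.2 CPM to 373 ± 44.2 CPM (-0.58, SE 0.12, adjusted p = 0.000694). The list medians between the end points were -0.37 for the inhibitors and anchors and -0.09 for the kinases and export genes.

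The 5 osmotic genes known as NFAT5 targets did not move one way while Nfat5 rose. Slc5a3, the inositol transporter, rose at the first step (log2 fold change 0.82, SE 0.09, adjusted p = 1.43e-05), from 64.5 ± 1.21 to 114 ± 13.6 CPM, while Akr1b3, aldose reductase, fell (-0.91, SE 0.16, adjusted p = 0.000317), from 16.9 ± 1.68 to 8.99 ± 1.83 CPM, and fell again at the second (-0.51, SE 0.16, adjusted p = 0.0147), a call lost without E12.5 replicate 1 or E14.5 replicate 2 (0.0705 and 0.0501, range 0.00327 to 0.0705). Slc6a6, the taurine transporter, rose at the second step (0.38, SE 0.05, adjusted p = 8.02e-05), and the remaining 2 were too low to test.

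The immediate-early genes, which many stimuli switch on and which tissue digestion is known to induce, rose strongly. Of 11 tested, 10 rose at the first step, 9 at the second and 11 between the end points, with a median log2 fold change of 5.06 there. Fos went from 8.52 ± 2.99 CPM at E10.5 through 170 ± 71.2 to 856 ± 102 CPM at E14.5, and Nr4a1 from 5.68 ± 0.314 through 61.1 ± 14 to 690 ± 69.1 CPM. The sum of the 13 genes of the list was 256 to 308 CPM at E10.5, 635 to 988 CPM at E12.5 and 2436 to 2831 CPM at E14.5. Their part in the values of the members was not tested. Rcan1, itself an inducible gene, was at 35.1 to 38 CPM at E10.5 and 36.5 to 37.9 CPM at E14.5. The lists are compared in the plot of log2 fold changes by list.

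**Figure D3:**
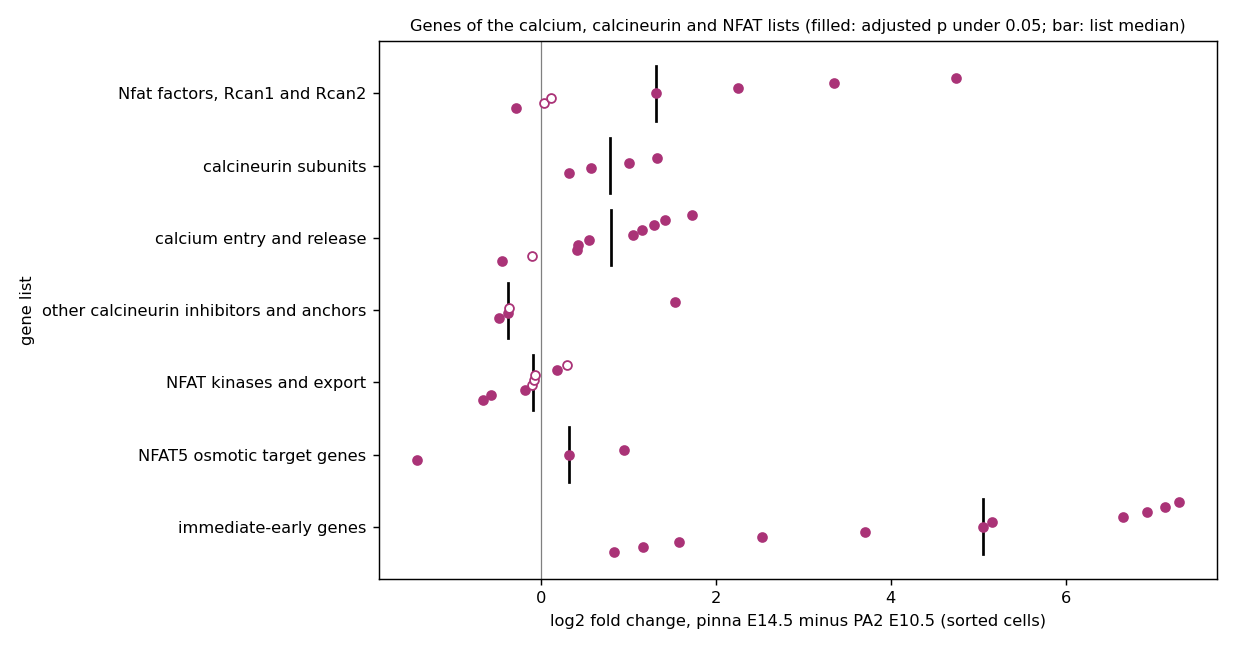
Log2 fold change of sorted cells, pinna E14.5 minus PA2 E10.5, for each tested gene of the 7 members and of 6 related lists. Points are genes, filled where the edgeR adjusted p is under 0.05, and black bars are list medians. Calcineurin subunits and calcium genes lie mostly to the right of 0 and immediate-early genes lie farthest right, with a median of 5.06.

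Genes whose profile over the 9 stage libraries was most like that of each member were found by Pearson's r of log2 CPM among genes with a mean of at least 10 CPM, as a description with no test. The 9 libraries fall into 3 stages, and an r near 1 is common in such data. Rcan3 was the most like Nfatc2 (r = 0.999), followed by Slc39a13 and Slc25a28 (both 0.998). Zfhx4 (0.996), Npc2 (0.996) and Fbxl7 (0.994) were most like Nfatc1, and Fbxl7 went from 25.9 to 40 CPM at E10.5 to 129 to 137 CPM at E12.5 and 82.8 to 89.3 CPM at E14.5. Nfat5 was closest to Prrg3, Vps13b and Zfp469 (all 0.998). Cdyl (0.998), Fosl2 (0.996) and Abcc9 (0.996) were closest to Rcan2, and Fosl2 was at 3.85 to 4.61 CPM at E10.5, 4.54 to 7.5 CPM at E12.5 and 129 to 153 CPM at E14.5. Nfatc4 was closest to Cacna1h, a calcium channel gene (0.991), Ptprs and Smarcc2. The values were lower for Rcan1 (Eepd1, 0.973, Ehd4, 0.961, and Rnf216, 0.942) and Nfatc3 (Lrrc58 and Atp5g1, both 0.964, and Kdm5c, 0.962), the members that varied least.

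The genotype comparison asked whether loss of HIRE1 changes the family in the arches at E10.5. None of the 7 members passed the edgeR test in PA2 or in PA3, where 0.438% and 0.216% of the 14383 genes tested were called in either direction. The count was also 0 in each arch with DESeq2 and with limma-voom. At an edgeR unadjusted p under 0.05 there was 1 member in PA2 and 2 in PA3, against 1233 and 1400 of the 14383 genes tested. The intervals show what size of change remained possible.

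In PA2 the widest interval was that of Nfatc2, with 0.658, 0.947 and 0.677 CPM in WT and 0.827, 0.857 and 0.37 CPM in HIRE1del. The log2 fold change was -0.16, with a 95% interval from -0.90 to 0.59. Rcan1 was measured most evenly next to Nfatc3, with 41.6, 39.1 and 39.4 CPM in WT and 38.1, 41.4 and 40.8 CPM in HIRE1del, and its log2 fold change of 0.0034 had an interval from -0.14 to 0.14. For Nfatc3, at 102, 97.1 and 102 CPM in WT and 94.4, 102 and 98.1 CPM in HIRE1del, the interval ran from -0.13 to 0.07. These groups overlapped in each of the 7 members.

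Nfat5 was the member with an unadjusted p under 0.05 in PA2. It was at 39.6, 48.6 and 50 CPM in WT and at 34.9, 38.7 and 40 CPM in HIRE1del, so that the highest HIRE1del library exceeded the lowest WT library. The log2 fold change was -0.28 (SE 0.12, 95% interval -0.53 to -0.04, edgeR unadjusted p = 0.028, adjusted p = 0.505), and the adjusted p was 0.339 to 0.984 over the alternatives. In PA3 Nfat5 was at 65.3, 64.4 and 61.9 CPM in WT and 51.9, 47 and 66 CPM in HIRE1del, a log2 fold change of -0.22 (SE 0.11, adjusted p = 0.567).

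In PA3 the members with an unadjusted p under 0.05 were Nfatc1 and Nfatc4. Nfatc1 was at 8.8, 6.82 and 8.49 CPM in WT and 10.48, 9.13 and 11.1 CPM in HIRE1del, and the groups did not overlap. Its log2 fold change was 0.35 (SE 0.14, 95% interval 0.05 to 0.64, edgeR unadjusted p = 0.0253, adjusted p = 0.453), and the adjusted p was 0.357 to 0.723 over the alternatives. In PA2 it was at 9.18, 12.7 and 11.3 CPM in WT and 10.1, 10.7 and 11.2 CPM in HIRE1del. Nfatc4 was at 157, 168 and 180 CPM in PA3 WT and 138, 137 and 167 CPM in PA3 HIRE1del, with overlap (-0.19, SE 0.09, edgeR unadjusted p = 0.0498, adjusted p = 0.513, range 0.195 to 0.898). In PA2 its values were 167, 198 and 205 CPM in WT and 192, 178 and 194 CPM in HIRE1del.

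Rcan2 was low in PA2, at 3.21, 2.98 and 2.71 CPM in WT and 2.86, 2.34 and 2.03 CPM in HIRE1del (log2 fold change -0.30, 95% interval -0.81 to 0.21). In PA3 it was at 7.81, 5.86 and 5.79 CPM in WT and 6.06, 6.61 and 3.58 CPM in HIRE1del (-0.26, 95% interval -0.72 to 0.20). Chondrogenic markers summed to 1078 to 1268 CPM in PA2 WT and 1357 to 1446 CPM in PA2 HIRE1del, but 0 of the 3 tested were called. Neuronal markers in PA2 summed to 24.9 to 28.5 CPM in WT and 15.3 to 21.4 CPM in HIRE1del. Glial markers summed to 44.2 to 49.5 CPM and 33 to 41.2 CPM in PA2, and to 98.8 to 133 CPM and 88.6 to 97.8 CPM in PA3. No tested neuronal or glial marker was called in either arch, and no member was called. Of the 43 tested pathway genes 1 was called, Akr1b3 in PA2, at 19.7 ± 3.76 (SD, n = 3) CPM in WT and 30.7 ± 2.84 CPM in HIRE1del. The log2 fold change was 0.64 (SE 0.13, adjusted p = 0.05, called because it was just under the threshold), and the call was lost with DESeq2 size factors, with total counts only and with the PA2 groups alone (adjusted p = 0.0505, 0.051 and 0.104). Neither did it hold on leaving out PA2 WT replicate 2 or 3 or PA2 HIRE1del replicate 1 or 2 (0.112, 0.143, 0.179 and 0.2), and over all alternatives the adjusted p was 0.000432 to 0.2.

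The difference of the genotype effects between the arches was also tested. It was called for 0 of the 7 members, against 0.0487% of all genes, and for 0 with DESeq2 and limma-voom. At an edgeR unadjusted p under 0.05 there were 0 members, against 794 of the 14383 genes tested. The largest difference among the members was that of Nfatc1, at -0.40 for PA2 minus PA3 (SE 0.19, 95% interval -0.82 to 0.01, edgeR adjusted p = 0.887).

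The arch comparison asked how the family differs between PA3 and PA2. In WT, Nfatc2, Nfat5 and Rcan2 were higher in PA3 and Nfatc1 and Nfatc3 were lower, 3 and 2 of 7 members, where 19.1% and 17.4% of all genes were called higher and lower. In HIRE1del, Nfatc2, Nfat5 and Rcan2 were higher and Nfatc4 was lower, 3 and 1 of 7, against 18.7% and 14.7% of all genes. Rcan1 passed in neither, at 36.2, 40.1 and 41.5 CPM in PA3 WT and 40.3, 38.4 and 38.1 CPM in PA3 HIRE1del, and its log2 fold change was -0.03 in WT (95% interval -0.17 to 0.11). Nfatc2 is in both counts of 3, though it was tested only because it reached 1 CPM in PA3, the arch where it was higher.

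Rcan2 and Nfatc2 had log2 fold changes above 1 in both genotypes. For Rcan2, each PA3 library, from 3.58 to 7.81 CPM, was above each PA2 library, from 2.03 to 3.21 CPM, and the log2 fold change was 1.13 (SE 0.22, adjusted p = 0.00168) in WT and 1.17 (SE 0.23, adjusted p = 0.00179) in HIRE1del. Nfat5 was also apart in both genotypes, with log2 fold changes of 0.47 (SE 0.11, adjusted p = 0.0059) and 0.54 (SE 0.12, adjusted p = 0.00301). Nfatc2 was at 1.99, 1.21 and 1.77 CPM in PA3 WT and 1.61, 1.4 and 1.25 CPM in PA3 HIRE1del, above each PA2 library. Because it reached 1 CPM in the PA3 libraries and in no PA2 library, it passed the filter through the arch where it was higher. Its log2 fold changes were 1.118 (SE 0.31, adjusted p = 0.0136) and 1.05 (SE 0.33, adjusted p = 0.0241). The WT call did not hold when PA2 WT replicate 3 or PA3 WT replicate 1 was left out (adjusted p = 0.0535 and 0.0516, range 0.0112 to 0.0535), and the HIRE1del call without PA2 replicate 3 or PA3 replicate 1 or 2 (0.0857, 0.0763 and 0.0502, range 0.0209 to 0.0857).

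Nfatc1 was lower in PA3 than in PA2 of WT by a log2 fold change of -0.46 (SE 0.14, adjusted p = 0.0173) with groups apart, and in HIRE1del the value was -0.06 (95% interval -0.35 to 0.23). Leaving out PA2 WT replicate 2 or 3 or PA3 WT replicate 2 ended the WT call (adjusted p = 0.0776, 0.0519 and 0.079, range 0.00647 to 0.079). Nfatc3 was at 95.3, 88.6 and 88.2 CPM in PA3 WT, below its PA2 values, with a log2 fold change of -0.14 (SE 0.05, adjusted p = 0.0304). Leaving out PA2 WT replicate 1 or 3 or PA3 WT replicate 2 or 3 ended that call (adjusted p = 0.0832, 0.0905, 0.105 and 0.123), as did a fit of the compared groups alone (0.0595, range 0.0195 to 0.123). In PA3 HIRE1del it was at 92, 92.5 and 93.5 CPM. Nfatc4 was lower in PA3 of HIRE1del by -0.35 (SE 0.09, adjusted p = 0.00786), and in WT the value was -0.18 (adjusted p = 0.135). With PA2 and PA3 libraries of the same number blocked as if from the same embryo pool, Nfatc4 was called in WT as well (-0.17, edgeR adjusted p = 0.0224, range 0.0224 to 0.385). No label states such pools. Nfatc4 was also called in WT without PA2 WT replicate 1 (0.0361). Without PA2 WT replicate 3 the number of members called in WT was 2, and without PA3 WT replicate 2 it was 3. Over all genes, 4121 of 14361 and 4231 of 14314 were then called, against 5252 of 14383 with all libraries.

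The arches also differed in their cell types. Smooth muscle and pericyte markers summed to 28.9 to 44.4 CPM in PA2 and 195 to 300.2 CPM in PA3, erythroid markers to 283 to 543 CPM and 2430 to 4328 CPM, glial markers to 33 to 49.5 CPM and 88.6 to 133 CPM, and epithelial markers to 170 to 204 CPM and 337 to 524 CPM. Of the 6 epithelial markers, 4 were called higher in PA3 of each genotype, and Krt14 was called lower (log2 fold change -2.80 in WT and -2.68 in HIRE1del). Neuronal markers summed to 15.3 to 28.5 CPM in PA2 and 46.9 to 147 CPM in PA3, and 5 of 5 were called higher in PA3 of each genotype, with median log2 fold changes of 3.73 in WT and 4.03 in HIRE1del. Endothelial markers were closer, at 237 to 249 CPM and 264 to 294 CPM. Crest mesenchyme markers were lower in PA3, at 571 to 793 CPM against 907 to 1058 CPM. Chondrogenic markers were also lower in PA3, at 752 to 941 CPM against 1078 to 1268 CPM in WT. In HIRE1del they were at 769 to 854 CPM in PA3 against 1357 to 1446 CPM in PA2. Rcan2, Nfatc2 and Nfat5 were higher in PA3, as were the sums of the smooth muscle and pericyte, erythroid, glial, epithelial, neuronal and endothelial markers. The part of these cell types in the values of the members was not tested. The immediate-early list fell, with 7 of 11 tested genes lower in PA3 WT and 8 in PA3 HIRE1del, led by Fosb (-3.80, SE 0.40, and -3.71, SE 0.36), while Rcan1 did not pass.

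**Figure D4:**
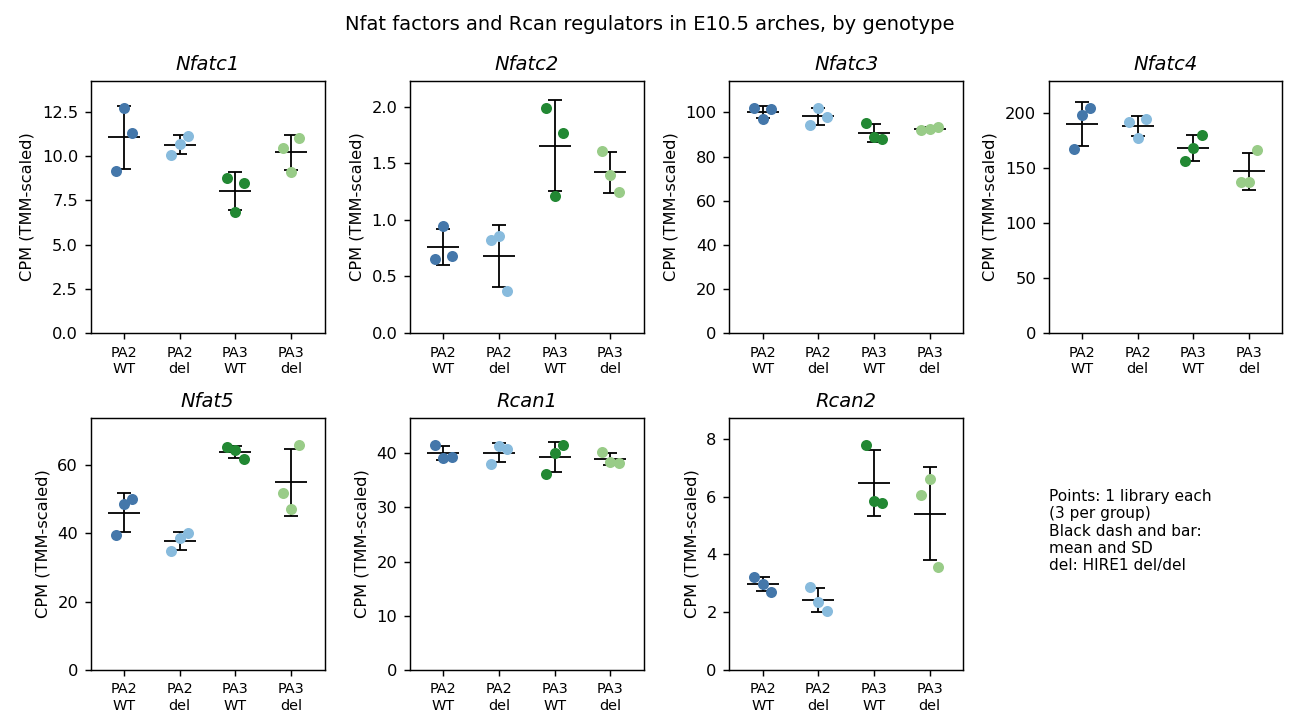
CPM (TMM-scaled) of the 7 genes in E10.5 PA2 and PA3 of WT and HIRE1 del/del embryos, with a panel per gene and axes from 0. Points are libraries, 3 per group, and the dash and bar are the mean and SD. Rcan2 and Nfatc2 lie higher in PA3 than in PA2 in both genotypes, and within an arch the genotypes overlap except for Nfatc1 in PA3.

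In the rest of the pathway, by the edgeR test between PA3 and PA2 of WT, 1 calcineurin subunit was higher and 2 were lower, among them Ppp3r1 (log2 fold change -0.25, SE 0.08, adjusted p = 0.0255). Itpr3 was higher (0.61, SE 0.07, adjusted p = 4.4e-05), as was Akap5 (0.52, SE 0.15, adjusted p = 0.016), and Xpo1 was lower (-0.35, SE 0.05, adjusted p = 0.000274). Calm3 (0.15, SE 0.05, adjusted p = 0.0186) and Slc6a6 (0.22, SE 0.08, adjusted p = 0.0371) were also higher. In HIRE1del, Ppp3ca (0.29, SE 0.06, adjusted p = 0.00367), Itpr1 (0.67, SE 0.11, adjusted p = 0.000522) and Akap5 (0.62, SE 0.15, adjusted p = 0.00712) were higher and Xpo1 was lower (-0.24, SE 0.05, adjusted p = 0.00466). Single libraries decided several of these calls. The adjusted p passed 0.05 for Ppp3r1 on leaving out PA2 WT replicate 1 or 3 or PA3 WT replicate 1 or 3 (0.1, 0.0606, 0.102 and 0.0535, range 0.0125 to 0.102). It did so for Calm3 with PA2 WT replicate 3 or PA3 WT replicate 3 left out (0.0803 and 0.0663, range 0.00414 to 0.0803), for Akap5 in WT with PA2 replicate 2 or PA3 replicate 1 (0.0671 and 0.0778, range 0.00217 to 0.0778) and for Slc6a6 with PA2 replicate 2 or 3 or PA3 replicate 1 (0.104, 0.123 and 0.155, range 0.00275 to 0.155).

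**Figure D5:**
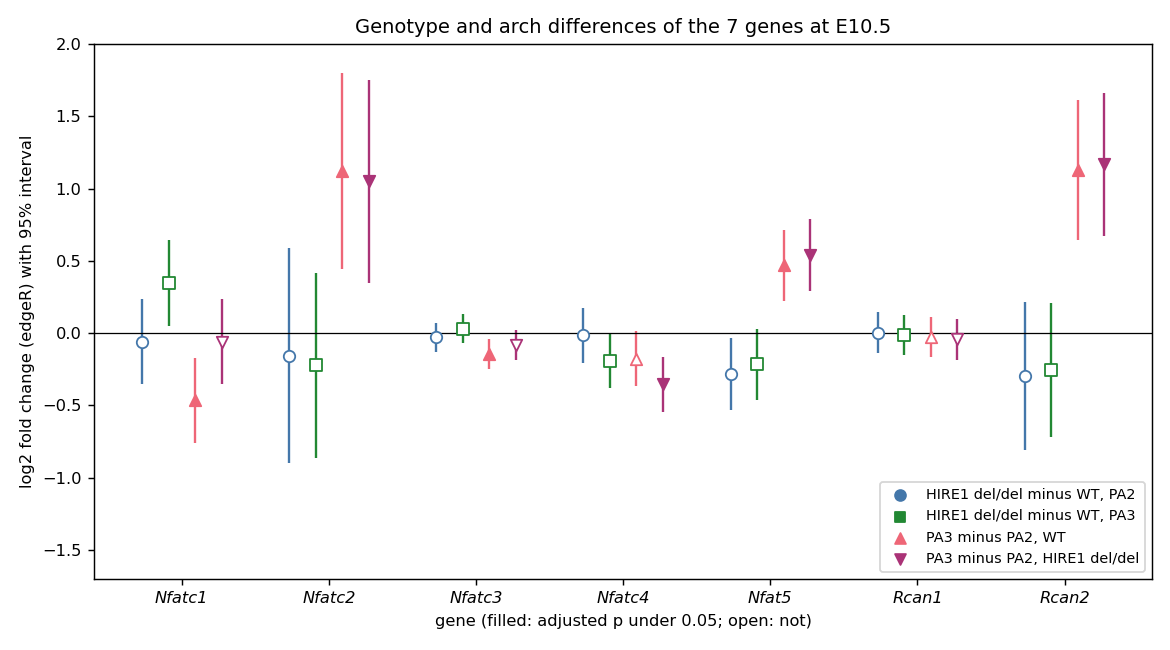
Log2 fold changes of the 7 genes with 95% intervals for HIRE1 del/del minus WT in PA2 and in PA3, and for PA3 minus PA2 in each genotype. Filled symbols have an edgeR adjusted p under 0.05. All 14 genotype values are open, and Nfatc2, Nfat5 and Rcan2 are filled and above 0 in both arch comparisons. Nfatc2 was tested only because it reached 1 CPM in PA3.

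The E10.5 PA2 of the 2 tables is set side by side with no test, since they differ in sort, read layout and scaling. Sorted stage cells had 278 to 338 CPM of Nfatc4 and 20.6 to 26.1 CPM of Nfatc1, and PA2 WT tissue had 167 to 205 CPM and 9.18 to 12.7 CPM. Rcan1 was at 35.1 to 38 CPM and 39.1 to 41.6 CPM, and Nfat5 at 50.5 to 56.8 CPM and 39.6 to 50 CPM. Nfatc2 was under 1 CPM in both.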

How the data were processed

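Mouse embryo RNA was sequenced at 50 bases, single-end for the stage table and paired-end for the genotype table. The authors aligned the reads to GRCm38 with QuasR and deposited raw counts per gene over the exons of UCSC known genes, counted in the orientation opposite to the gene, whereas the labels call the kit unstranded. Reads of overlapping genes may thus be mixed. Here edgeR 4.0.16 (R 4.3.3) was run on each table separately. A gene was tested if 2 or more libraries reached 1 CPM (13438 stage and 14383 genotype genes). Scaling was by TMM, the model had a term for each group, and contrasts were tested with the two-sided quasi-likelihood test and Benjamini-Hochberg adjustment over all genes tested, with adjusted p under 0.05 as a call. CPM values use TMM-scaled totals, SD is over 3 libraries, and 95% intervals are the log2 fold change ± the t quantile times its SE. A self-test on simulated counts was passed, with few genes changed and only the first contrast of each table. It does not cover stage comparisons, where most genes were called. P-values set a difference between groups against the spread between these libraries, which the main fit estimated over all groups of a table.

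The members and the gene lists were chosen with earlier results of these data known. All 7 members are named, and from each other list the 2 called genes with the largest change per stage comparison and 1 per genotype or arch comparison, with lists of at most 5 genes open to naming in whole, and 3 look-alike genes per member. The values of 1 pathway gene are not reported here. Alternatives were DESeq2 1.42.0 size factors and test, total counts, no filter, filterByExpr, limma 3.58.1 voom, the compared groups alone, replicate blocks and leaving out each library. The replicate numbers were checked by correlating deviations from group means: between PA2 and PA3 of a genotype r was 0.167 to 0.355 in all 6 pairs. Same-numbered arches were therefore blocked as if they shared an embryo pool, which no label states. Across stages or genotypes signs were mixed, and r reached 0.232 between PA2 WT and PA3 HIRE1del.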

Additional observations from a re-analysis of the deposited data

How the results depend on the processing

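Of 839 recomputed values of the members, 778 kept direction and side of the threshold, 22 lost a call, 4 gained one and 35 changed sign, 0 of them for a called member. The changes of sign were small. With total counts only, Rcan1 was at -0.0307 from E10.5 to E14.5 and at -0.00951 for HIRE1del in PA2, and with limma-voom the Nfatc2 difference of genotype effects was -0.0228. Leaving out single libraries gave, for HIRE1del in PA2, -0.18 to 0.052 for Nfatc1, -0.35 to 0.15 for Nfatc2, -0.098 to 0.042 for Nfatc4 and -0.020 to 0.039 for Rcan1. For HIRE1del in PA3 it gave -0.068 to 0.026 for Rcan1. Between arches it gave -0.061 to 0.030 for Rcan1 in WT and -0.12 to 0.015 for Nfatc1 in HIRE1del. The differences of genotype effects ran from -0.12 to 0.37 for Nfatc2, -0.17 to 0.085 for Nfat5, -0.014 to 0.072 for Rcan1 and -0.27 to 0.14 for Rcan2. The number of members called between arches in WT was 2 to 5 without a single library. Calls over all genes fell as well, from 5252 of 14383 with all libraries to 4121 of 14361 without PA2 WT replicate 3. The cause was not tested. With total counts only, the median of all genes from E12.5 to E14.5 moved to -0.13 from -0.01, the higher share of calls fell to 38.5% from 49.7%, and Nfatc3 was called there (-0.21, adjusted p = 0.0228, range over alternatives 0.0228 to 0.688).

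A block on same-numbered arch libraries, as if they shared an embryo pool, called Nfatc4 in WT (-0.17) and changed no other member call. Across stages and genotypes the numbers do not pair the libraries (r from -0.298 to 0.232), and a block on them changed no member call there. The lowest members limit precision most, Nfatc2 in PA2 resting on 10 to 27 counts per library.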
